A study of Mus musculus with 30 samples.

Results

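This account follows 7 genes whose products mark the differentiating Sertoli cell of the fetal mouse testis: Cst9, Aard, Cldn11, Ptgds, Clu, Mro and Vnn1. They were taken by mouse symbol, matched through the Ensembl identifiers of the count files, out of 49315 genes in all, and all 7 were among the 19323 genes that passed the filter on low counts. RNA was sequenced from 30 cultures of testis tissue of C57BL/6 fetuses, taken on gestational day 14 and freed of the mesonephros. Each culture was kept for 24 h on an insert, and every group, vehicle included, held DMSO at a dilution of 1 in 4000. The groups were vehicle (DMSO alone, n = 15), mono-(2-ethylhexyl) phthalate (MEHP, a phthalate monoester) at 100 µM (n = 6), all-trans retinoic acid (ATRA) at 1 µM (n = 5) and MEHP + ATRA at the same concentrations (n = 4).

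The sample titles carry a pair of numbers that the labels leave unexplained. The second of them ran from 416 to 465 (lower range) or from 525 to 599 (upper range), and vehicle was split at 500 into 9 lower-range and 6 upper-range libraries. All ATRA and MEHP + ATRA libraries lay in the lower range and all MEHP libraries in the upper range, so every treatment was set against vehicle libraries of its own range through a range term in 1 fit over all libraries. Replicate numbers below are names given in accession order. No label ties a library to an animal or a litter. The p-values therefore cover the spread between these libraries, which may be technical. Libraries held 17551454 to 29306917 counts, and levels are given as CPM, counts scaled to library size after TMM normalisation. None of 32 other Sertoli cell genes was at 0 in any library, and their summed level ran from 3168 to 5823 CPM in vehicle. In bulk tissue, fewer cells of a type and less RNA per cell cannot be told apart.

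Sertoli cells are the supporting cells of the testis cords. They arise when SRY and then SOX9 commit the supporting lineage of the gonad to the male fate, after which they enclose the germ cells, secrete anti-Müllerian hormone and direct the differentiation of the other cells. Retinoic acid is kept low in the fetal testis, where Sertoli cells express the retinoid-degrading enzyme CYP26B1, and phthalate monoesters are known to disturb the fetal testis and to activate peroxisome proliferator-activated receptors (PPARs). The products studied here fall into 3 kinds. Secreted proteins are Cst9 (testatin, a cystatin-related protein of early Sertoli cells), Clu (clusterin, an extracellular chaperone abundant in Sertoli cell secretions) and Ptgds (the lipocalin-type synthase of prostaglandin D2). Cell surface proteins are Cldn11 (claudin 11, the strand-forming protein of Sertoli cell tight junctions) and Vnn1 (vanin 1, a membrane-anchored enzyme that releases pantothenate from pantetheine and is a PPAR target in liver). Aard encodes an alanine- and arginine-rich domain protein and Mro encodes maestro, both known from male-specific expression in the developing gonad.

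RefSeq start-site windows on GRCm38.p6 matched 3 of the 7 genes, and the 250 bases upstream of each start site are shown because 2 of these genes (Cst9 and Cldn11) rose with ATRA whereas Ptgds did not pass the test. The windows are chr2:148834897-148835146 on the plus strand for Cst9, chr3:31149670-31149919 on the plus strand for Cldn11 and chr2:25469750-25469999 on the minus strand for Ptgds. The Ptgds window lies upstream of the RefSeq start site but inside the longer gene span that the count files give. Each reads 5′ to 3′ toward the start site, and capitals mark the motif matches described after them.
Cst9: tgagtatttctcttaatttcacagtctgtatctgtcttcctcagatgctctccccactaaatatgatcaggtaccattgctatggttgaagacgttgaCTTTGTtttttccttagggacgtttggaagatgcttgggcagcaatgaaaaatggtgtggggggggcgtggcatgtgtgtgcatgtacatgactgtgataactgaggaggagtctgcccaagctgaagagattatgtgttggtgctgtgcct
Cldn11: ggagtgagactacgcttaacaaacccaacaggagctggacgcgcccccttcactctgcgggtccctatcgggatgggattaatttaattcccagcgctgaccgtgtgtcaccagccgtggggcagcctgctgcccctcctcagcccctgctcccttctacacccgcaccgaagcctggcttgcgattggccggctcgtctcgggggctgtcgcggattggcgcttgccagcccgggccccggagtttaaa
Ptgds: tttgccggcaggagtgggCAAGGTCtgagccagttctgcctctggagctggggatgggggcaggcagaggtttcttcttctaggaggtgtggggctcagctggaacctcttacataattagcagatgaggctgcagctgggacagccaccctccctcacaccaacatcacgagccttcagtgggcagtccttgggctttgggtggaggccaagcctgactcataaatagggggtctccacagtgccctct

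Both strands were searched for the SOX motifs AACAAT and ACAAAG, the nuclear receptor half-sites AGGTCA and GGTTCA, the NR5A1 motif CAAGGTC, the GATA motif AGATAA, and the retinoid and PPAR direct repeats. The Cst9 window held 1 match, ACAAAG read on the opposite strand 147 to 152 bases upstream, and 16.5% of 32851 RefSeq windows of the same length hold that motif. The Ptgds window held CAAGGTC 226 to 232 bases upstream, which 3.32% of windows hold. No searched motif lay in the Cldn11 window. The retinoid direct repeats with 5 and 2 spacing bases occurred in 0.0883% and 0.174% of all windows and the PPAR direct repeat in 0.164%, and none lay in these 3. A match describes letters in a window, not a bound site.

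The 7 genes are all protein coding and lie on 6 chromosomes. In the coordinates of the files, which are on the GRCm38 frame, Cst9 (ENSMUSG00000027445) spans chr2:148835147-148838738 on the plus strand and Ptgds (ENSMUSG00000015090) spans chr2:25466709-25470046 on the minus strand. Aard (ENSMUSG00000068522) is at chr15:52040107-52045722, Cldn11 (ENSMUSG00000037625) at chr3:31149920-31164324, and Clu (ENSMUSG00000022037) at chr14:65968483-65981548, each on the plus strand. Mro (ENSMUSG00000064036) is at chr18:73859385-73881333 and Vnn1 (ENSMUSG00000037440) at chr10:23894688-23905343, also on the plus strand. No other gene of the files overlapped any of them, so antisense reads of a partner gene do not enter their counts.

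With vehicle alone, the 7 genes differed widely in level. Per kilobase of exon length, in the lower-range vehicle libraries (n = 9), Clu stood highest at 343 ± 28.9 CPM per kb (mean ± SD), above the other 6 genes in every library. Aard (146 ± 25.4), Cst9 (128 ± 15.95) and Ptgds (102 ± 6.62 CPM per kb) followed, and the neighbours in this order overlapped between libraries: Aard ranged from 109 to 178, Cst9 from 105 to 161 and Ptgds from 94.4 to 113 CPM per kb. Mro (22.8 ± 2.01), Cldn11 (14.7 ± 4.22) and Vnn1 (10.8 ± 1.18 CPM per kb) formed the low end, where Cldn11 overlapped both of its neighbours. Cldn11 was also the gene whose CPM varied most among these libraries, with a coefficient of variation of 28.7%, and Ptgds varied least, at 6.47%.

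The order changed with ATRA. Aard (330 ± 27.2 CPM per kb, n = 5), Clu (314 ± 24.2) and Cst9 (290 ± 44.6) then overlapped at the top, whereas Clu had stood alone there in vehicle. Ptgds was next at 86.1 ± 10.3 CPM per kb. Cldn11 (46.4 ± 6.05 CPM per kb, lowest library 39.4) lay above Mro (21.02 ± 0.644, highest library 21.8) in all libraries, the reverse of their means in vehicle, and Vnn1 was lowest at 7.90 ± 1.00 CPM per kb. With MEHP + ATRA the order of means was Aard (313), Cst9 (308), Clu (294), Ptgds (88.1), Cldn11, Mro (20.2) and Vnn1 (8.36 CPM per kb). With MEHP alone Clu remained highest at 390 ± 42.4 CPM per kb (n = 6), Cldn11 (21.1 ± 5.83) and Mro (24.0 ± 1.52) overlapped, and Vnn1 was lowest at 11.2 ± 2.03.

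**Figure D1:**
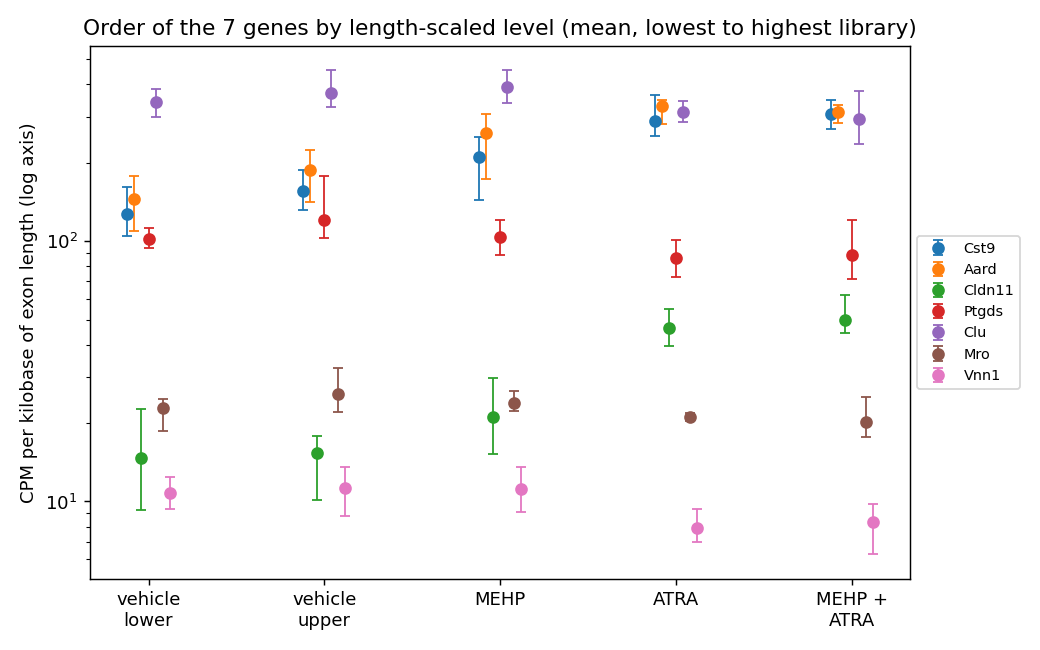
Length-scaled level of the 7 genes in 5 sets of libraries: the horizontal axis gives the set, the vertical axis CPM per kilobase of exon on a log scale, points are means and bars run from the lowest to the highest library. Clu stands apart at the top in lower-range vehicle (343 CPM per kb), whereas Aard, Clu and Cst9 overlap with ATRA, and Cldn11 passes from below Mro to above it.

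ATRA against vehicle asked what the retinoid alone changed. Cst9, Aard and Cldn11 rose 2.27-, 2.27- and 3.16-fold, Vnn1 fell to 0.734 of its vehicle level, and Ptgds, Clu and Mro did not pass the test. That is 3 members higher and 1 lower of 7, where 9.06% of the 19323 genes tested were called higher and 9.03% lower (18.1% in all). The median log2 fold change was −0.12 over the 7 members and −0.0001831 over all genes tested. The members did not shift together, since the tests called them in opposite directions.

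Cst9 lay between 72.1 and 111 CPM in the lower-range vehicle libraries (median 87.4). The 5 ATRA libraries, in order of replicate number, held 175, 186, 251, 202 and 182 CPM of Cst9. Every ATRA library lay above every lower-range vehicle library, and replicate 3 was the highest. The log2 fold change of Cst9 was 1.18 ± 0.11 (SE; 95% interval 0.96 to 1.40), with an adjusted p = 8.88e-10 by edgeR's quasi-likelihood test.

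Aard held 147 to 240.5 CPM in lower-range vehicle (median 203). With ATRA, Aard held 459, 455, 459.5, 471 and 380.2 CPM in replicates 1 to 5. The groups did not overlap, 4 of the ATRA libraries lay within a narrow band and replicate 5 lay below it. The log2 fold change was 1.18 ± 0.12 (95% interval 0.93 to 1.43, adjusted p = 1.18e-08, edgeR).

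Cldn11 held 17.4 to 42.3 CPM in lower-range vehicle (median 25.6). With ATRA it held 84.7, 79.8, 102, 93.7 and 73.7 CPM in replicates 1 to 5. The lowest ATRA library was well above the highest vehicle library. The log2 fold change was 1.66 ± 0.16 (95% interval 1.33 to 1.99, adjusted p = 3.00e-09, edgeR), and this was the member that changed most.

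Vnn1 held 22.6 to 29.9 CPM in lower-range vehicle (median 25.8) and 18.04, 22.55, 20.7, 16.9 and 17.3 CPM in ATRA replicates 1 to 5. All ATRA libraries lay below all lower-range vehicle libraries, although replicate 2 lay close to the lowest of them. The log2 fold change was −0.45 ± 0.11 (95% interval −0.68 to −0.21, adjusted p = 0.00489, edgeR), and the call held when any 1 library was left out. In all, 4 of the 7 members did not overlap between ATRA and lower-range vehicle (3 above and 1 below), where 9.49% of all genes tested did not overlap in either direction.

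Ptgds, Clu and Mro lay slightly lower with ATRA, by −0.25 ± 0.11, −0.13 ± 0.09 and −0.12 ± 0.08 in log2, with adjusted p of 0.142, 0.400 and 0.382 (edgeR). Ptgds held 147, 166, 140, 136 and 119.7 CPM in ATRA replicates 1 to 5 against 156 to 186 CPM in lower-range vehicle, so that 4 of 5 ATRA libraries lay below all of these vehicle libraries. Clu held 985 to 1189 CPM with ATRA and 1035 to 1327 CPM in lower-range vehicle, and Mro held 89.9 to 96.7 and 82.8 to 109.7 CPM. Clu and Mro overlapped between the groups. Their 95% intervals, −0.31 to 0.06 for Clu and −0.29 to 0.05 for Mro, leave out a change of the size seen in Cldn11 in either direction. Without vehicle replicate 11, the upper-range library with the highest Ptgds level (294.5 CPM), Ptgds passed the test (log2 fold change −0.25, adjusted p = 0.0494, edgeR). It also passed by limma-voom (−0.26, adjusted p = 0.0213) and without the range term (−0.35, adjusted p = 0.0253).

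MEHP + ATRA against vehicle asked the same of the co-exposure, and it shares its vehicle libraries with the ATRA comparison. Again Cst9, Aard and Cldn11 rose, 2.42-, 2.15- and 3.40-fold, and Vnn1 fell to 0.775 of its level, 3 members higher and 1 lower where 14.3% of all genes were called higher and 14.7% lower (29% in all). The median over the members was −0.18 and over all genes −0.01. In MEHP + ATRA replicates 1 to 4, Cst9 held 219.8, 185, 203 and 239.5 CPM, Aard held 451, 382, 424 and 429 CPM, and Cldn11 held 116, 90.8, 83.4 and 83.4 CPM. All of these lay above every lower-range vehicle library. The log2 fold changes were 1.27 ± 0.12 for Cst9 (adjusted p = 2.88e-10), 1.10 ± 0.13 for Aard (7.25e-08) and 1.76 ± 0.17 for Cldn11 (1.20e-09, edgeR). The 3 members that did not overlap with vehicle compare with 17.6% of all genes.

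Vnn1 held 23.65, 15.1, 21.3 and 20.7 CPM in MEHP + ATRA replicates 1 to 4, and 3 of the 4 lay below all lower-range vehicle libraries. Its log2 fold change was −0.37 ± 0.12 (95% interval −0.62 to −0.12, adjusted p = 0.0229, edgeR). The call was lost without MEHP + ATRA replicate 2 or replicate 4, with adjusted p up to 0.162.

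The gap below the highest co-exposure library, over the range of the group, was 0.81 for Mro and 0.78 for Ptgds. It was 0.78 for Cldn11 and 0.62 for Clu, all below the 0.829 at which a library was flagged. Replicate 1 was the library above each of these gaps, and the highest of its group for every member but Cst9. It held 199.8 CPM of Ptgds, 1303 CPM of Clu and 112 CPM of Mro, whereas replicates 2 to 4 held 118, 127 and 136 CPM of Ptgds, 812, 931 and 997.5 CPM of Clu, and 78.6, 81.5 and 85.0 CPM of Mro. This library also had the highest summed level of the 32 other Sertoli cell genes in its group (4307 CPM, where the lowest library had 3235 CPM) and the highest Leydig cell marker sum (2295 CPM, group median 1936). With it in the fit, Ptgds (−0.22 ± 0.12), Clu (−0.22 ± 0.10) and Mro (−0.18 ± 0.09) had adjusted p of 0.204, 0.0827 and 0.134 (edgeR). Without it, all 3 were called lower, with log2 fold changes of −0.40, −0.36 and −0.30 and adjusted p of 0.0125, 0.00413 and 0.0104, so that 4 of the 7 members were then lower. With all libraries, limma-voom also called these 3 lower (adjusted p from 0.00849 to 0.0246).

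**Figure D2:**
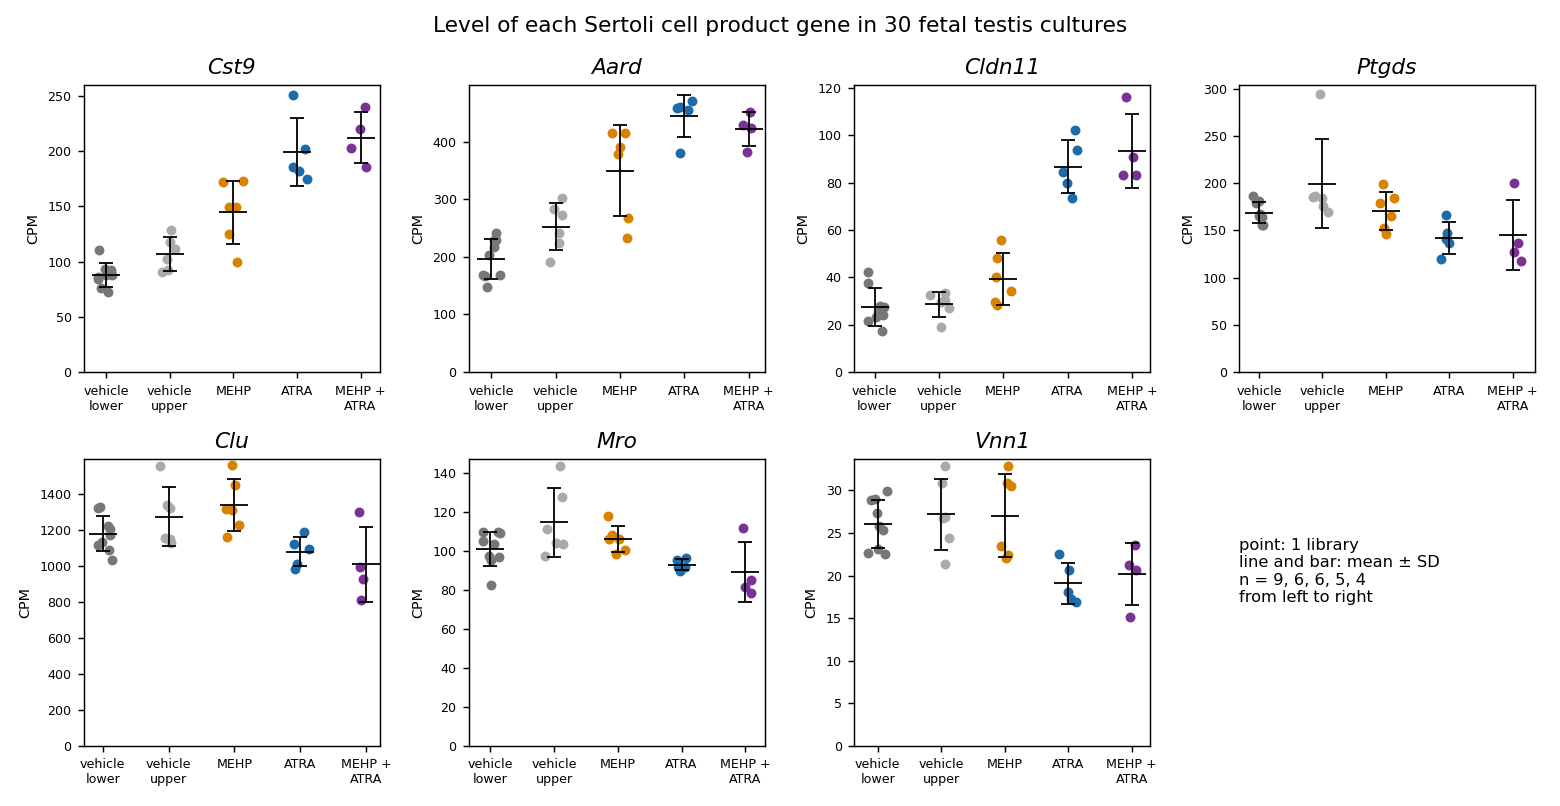
Level of the 7 genes in every library: 1 panel for each gene, libraries by group on the horizontal axis, CPM on the vertical axis from 0, points are libraries and the black lines mean ± SD. Cst9, Aard and Cldn11 lie higher in all ATRA and MEHP + ATRA libraries than in lower-range vehicle, and 1 upper-range vehicle library stands apart for Ptgds at 294.5 CPM.

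MEHP against vehicle asked what the phthalate alone changed. Cst9 and Aard rose, 1.35- and 1.39-fold, and no member fell (0 of 7 also at an unadjusted p below 0.05 in edgeR, and 0 by DESeq2 and by limma-voom), where 2.88% of all genes tested were called higher and 1.84% lower (4.72% in all). The median log2 fold change was 0.07 over the members and −0.01 over all genes. Cst9 held 173, 125, 149, 99.3, 149 and 172 CPM in MEHP replicates 1 to 6, against 90.2 to 129 CPM in upper-range vehicle (median 106.5). Aard held 415.3, 268, 414.1, 233, 379 and 390.4 CPM in the same order, against 191 to 302 CPM (median 256). The same libraries, replicates 2 and 4, were low for both genes and overlapped with vehicle (they share their first title number, whose part in this was not tested), and the other 4 lay above every upper-range vehicle library. No member was free of overlap here, as for all but 1.84% of genes tested. The log2 fold changes were 0.44 ± 0.12 (95% interval 0.20 to 0.67, adjusted p = 0.0219) for Cst9 and 0.47 ± 0.13 (0.20 to 0.74, adjusted p = 0.0304) for Aard, by edgeR.

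Cldn11 held 55.9, 29.6, 48.3, 28.5, 34.1 and 40.0 CPM in MEHP replicates 1 to 6 and 18.9 to 33.45 CPM in upper-range vehicle. Replicates 2 and 4 were again the lowest, and the other 4 lay above all upper-range vehicle libraries. The log2 fold change of Cldn11, 0.46 ± 0.18 (95% interval 0.10 to 0.82), did not pass the test (adjusted p = 0.165, edgeR), but it did without the range term (0.50, adjusted p = 0.0203). Vnn1 showed no difference that the test could call (−0.01 ± 0.12, 95% interval −0.25 to 0.23, adjusted p = 0.985), with 22.1 to 32.8 CPM with MEHP and 21.3 to 32.85 CPM in upper-range vehicle. Ptgds (−0.22 ± 0.12, adjusted p = 0.388), Clu (0.07 ± 0.09, adjusted p = 0.820) and Mro (−0.11 ± 0.08, adjusted p = 0.622) also did not pass.

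The MEHP calls lay near the threshold and did not hold in every fit that left out 1 library. Cst9 lost its call without MEHP replicate 1 or 6 or vehicle replicate 3 or 10, and Aard without MEHP replicate 1, 3, 5 or 6 or vehicle replicate 3, 6 or 10. Their log2 fold changes stayed between 0.38 and 0.52 for Cst9 and between 0.41 and 0.57 for Aard when 1 library was left out, with adjusted p up to 0.0792 and 0.0957 (edgeR). In the 12 upper-range libraries alone, neither was called (adjusted p = 0.0932 for Cst9 and 0.131 for Aard).

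**Figure D3:**
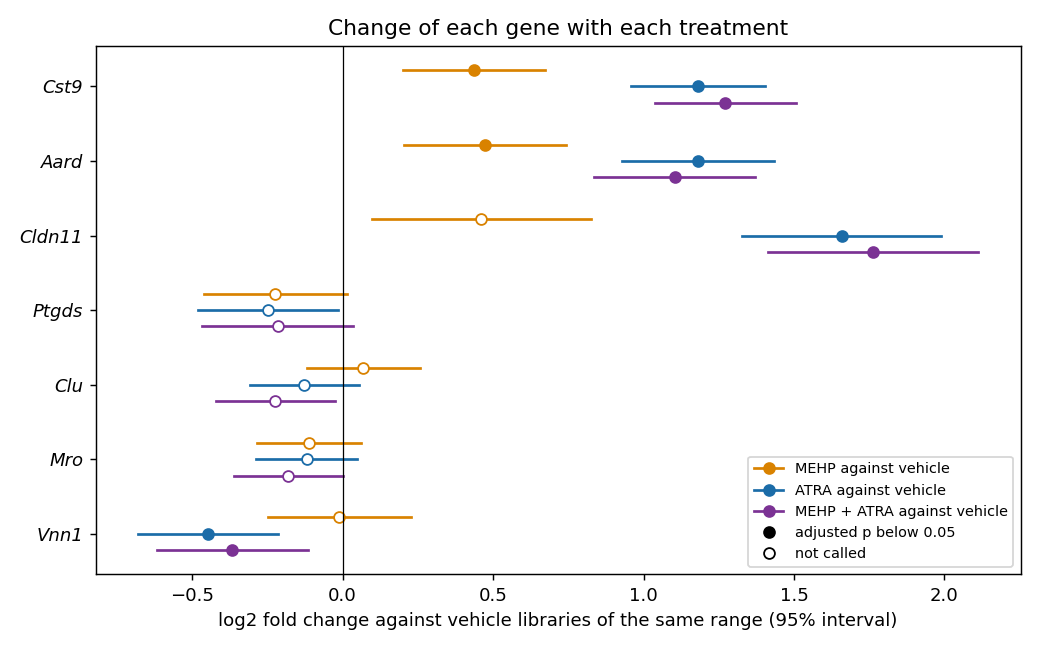
Log2 fold change of each gene with MEHP, ATRA and MEHP + ATRA against vehicle on the horizontal axis, genes on the vertical axis, lines are 95% intervals and filled points passed an adjusted p of 0.05. Cst9, Aard and Cldn11 lie to the right in all 3 comparisons and reach 1.18, 1.18 and 1.66 with ATRA, whereas Vnn1 lies at −0.01 with MEHP and −0.45 with ATRA.

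The change with ATRA was larger than that with MEHP for the 3 genes that rose. The difference between the ATRA and MEHP effects, a contrast added after the values were seen, was 0.75 ± 0.16 in log2 for Cst9 (adjusted p = 0.00404), 0.71 ± 0.18 for Aard (0.0184) and 1.20 ± 0.24 for Cldn11 (0.0023, edgeR), where 4.36% of all genes were called. For Vnn1 the difference was −0.44 ± 0.16 and did not pass (adjusted p = 0.145, edgeR). This contrast crosses the ranges and rests on the range term. Without the range term the difference for Aard was 0.35 and was not called (adjusted p = 0.13), and that for Vnn1 was called (−0.50, adjusted p = 0.00435).

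Adding MEHP to ATRA moved no member past the test (0 of 7 also at an unadjusted p below 0.05 in edgeR, and 0 by DESeq2 and by limma-voom), where 3% of genes were called in MEHP + ATRA against ATRA. The log2 differences were 0.09 ± 0.13 for Cst9 (95% interval −0.18 to 0.36), −0.08 ± 0.15 for Aard (−0.39 to 0.23), 0.11 ± 0.20 for Cldn11 (−0.29 to 0.50) and 0.08 ± 0.14 for Vnn1 (−0.20 to 0.36). The adjusted p of the 7 members lay between 0.778 and 0.957 (edgeR). The interval of Cldn11 does not exclude a change of the size that MEHP alone gave in that gene (0.46). The upper bounds for Cst9 and Aard lie below the MEHP point estimates of those genes (0.44 and 0.47). Those estimates have intervals of their own (0.20 to 0.67 and 0.20 to 0.74), which overlap the intervals given here. Whether the effect of MEHP differs with ATRA is the question of the interaction below, which was called for 0 of 7 members.

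Adding ATRA to MEHP raised the same 3 genes: by 0.84 ± 0.17 in log2 for Cst9 (adjusted p = 0.000918), 0.63 ± 0.19 for Aard (0.0317) and 1.30 ± 0.25 for Cldn11 (0.000637, edgeR), where 4.06% of genes were called higher and 8.29% in all. This comparison crosses the ranges and rests on the range term. The Aard call was lost without MEHP replicate 2, MEHP + ATRA replicate 1, 3 or 4, or vehicle replicate 11 or 14 (adjusted p up to 0.0697), without the range term (0.27, adjusted p = 0.302), and without vehicle replicates 1 and 11 and MEHP + ATRA replicate 1 together (0.56, adjusted p = 0.111). Without MEHP + ATRA replicate 1, Clu was called lower (−0.44, adjusted p = 0.0255).

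The interaction (how far the effect of MEHP in the presence of ATRA differs from its effect alone) was called for 0 of 7 members and for 0.0311% of genes. At an unadjusted p below 0.05 it took in 1 member in edgeR, and DESeq2 and limma-voom called 0. It was −0.55 ± 0.20 for Aard (95% interval −0.96 to −0.14, unadjusted p = 0.0104, adjusted p = 0.787, edgeR), −0.35 ± 0.18 for Cst9 and −0.36 ± 0.26 for Cldn11. The changes of these 3 genes with both compounds were thus below the sum of the separate changes in each case, by amounts that did not pass the test over all genes. MEHP alone lay only in the upper range and MEHP + ATRA only in the lower. An interaction therefore cannot be told apart from an effect of MEHP that differs between the ranges. Between upper-range and lower-range vehicle 0 of 7 members were called, where 0.373% of genes were (4 at an unadjusted p below 0.05 in edgeR, and 0 called by DESeq2 and by limma-voom), and all 7 differences were positive: Aard (0.36 ± 0.12, adjusted p = 0.156) and Cst9 (0.28 ± 0.11, adjusted p = 0.214) differed most.

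The rise of Cst9 was shared by part of its neighbourhood on chromosome 2, where the cystatin genes lie next to each other. Of 9 tested genes within 200 kb of Cst9, a window chosen after the changes of Cst11 and Cst12 had been seen, 3 were called higher with ATRA. Over all genes tested, 9.06% were called higher. The predicted gene 8030411F24Rik, 49.2 kb away, went from 8.33 CPM in lower-range vehicle to 62.8 CPM with ATRA (log2 fold change 2.92 ± 0.14, adjusted p = 4.75e-16, edgeR) and was also called with MEHP (1.499, adjusted p = 8.21e-08) and with MEHP + ATRA (3.66, adjusted p = 1.93e-18). Cst12, 41.6 kb away, rose from 6.58 to 23.6 CPM with ATRA (1.84 ± 0.21), and Cst11, 63.65 kb away, from 1.39 to 2.86 CPM (1.05 ± 0.22).

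Other genes of the same cluster were not called. Cst8, which lies between Cst12 and Cst9, changed by 0.14 ± 0.09, Cst13, the nearest neighbour at 4.74 kb, by −0.22 ± 0.24, and Cst3 (cystatin C, a widely expressed protease inhibitor) by −0.05 ± 0.05 on the other side. Counting can split reads between similar copies, so levels within this family are uncertain to that extent. Around the other 6 members, ATRA called 4 higher and 4 lower of 53 tested genes within 200 kb. The shares over all genes tested were 9.06% higher and 9.03% lower.

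The 32 other Sertoli cell genes also split in direction. ATRA called 9 higher and 9 lower of 32 (median −0.03), MEHP 4 higher and 5 lower (median −0.03), and MEHP + ATRA 12 higher and 9 lower (median −0.05). With ATRA, 5 of 10 transcription factors were called higher and 1 lower. Of the 10 secreted factors 2 were higher and 4 lower, as were 2 and 4 of the 12 enzymes, receptors and other products. These lists were chosen with earlier results of these data known, and their counts are descriptions.

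Among the transcription factors, Sox9, the central factor of Sertoli cell fate, rose by 0.81 ± 0.14 in log2 with ATRA, 0.62 ± 0.15 with MEHP and 1.28 ± 0.14 with both. Nr0b1 (DAX1, a nuclear receptor that acts on the supporting lineage) rose by 2.23 ± 0.12 with ATRA, from 10.5 ± 1.73 CPM to 49.2 ± 4.14 CPM, and by 2.54 ± 0.12 with both. Wt1 rose with ATRA by 0.63 ± 0.08 (adjusted p = 3.58e-07, edgeR). Sox8, the close relative of Sox9, changed by 0.25 ± 0.11 with ATRA (adjusted p = 0.113, edgeR).

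Secreted and enzymatic products were called in both directions. Amh, the hormone that regresses the Müllerian duct, fell by 0.61 ± 0.14 in log2 with ATRA, 0.63 ± 0.15 with MEHP and 1.11 ± 0.16 with both. Hsd17b1, a steroid-reducing enzyme, held 68.8 ± 9.11 CPM in lower-range vehicle, 16.7 ± 3.40 CPM with ATRA and 4.34 ± 0.641 CPM with both, a log2 fold change of −3.98 ± 0.20 for the last. Inha, the inhibin alpha subunit, fell with ATRA by 0.60 ± 0.13 and had −0.19 ± 0.13 with MEHP (adjusted p = 0.557, edgeR). Dhh, the Hedgehog ligand of Sertoli cells, rose with ATRA by 0.38 ± 0.10, and Fshr, the receptor for follicle-stimulating hormone, had −0.31 ± 0.22 (adjusted p = 0.402, edgeR). Without the range term Dhh lost its call (0.25, adjusted p = 0.0902).

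**Figure D4:**
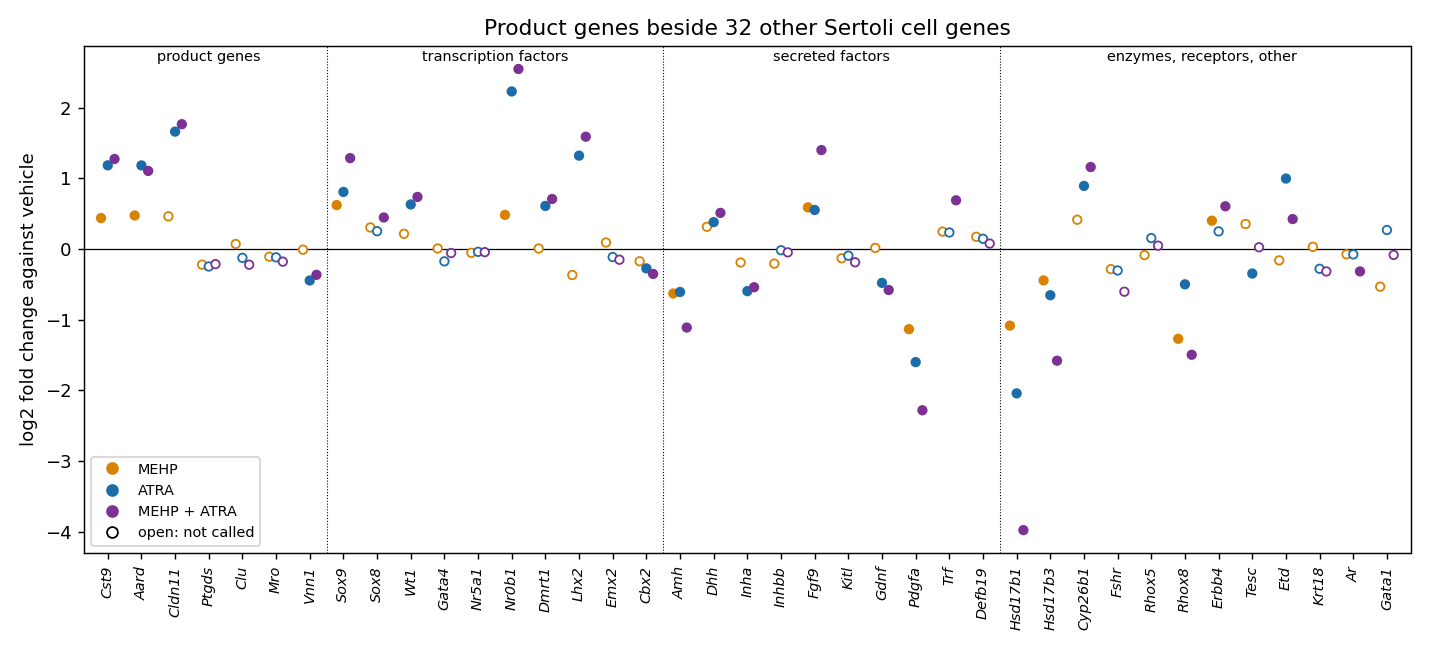
Log2 fold change with MEHP, ATRA and MEHP + ATRA (vertical axis) for the 7 product genes and 32 other Sertoli cell genes in 3 groups (horizontal axis), filled where the adjusted p was below 0.05. Each group holds genes on both sides of 0, from Nr0b1 at 2.54 to Hsd17b1 at −3.98 with both compounds.

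Genes of the members' own pathways were counted over whole lists, and counts are given for the comparisons named. Of 19 claudin and other tight junction genes besides Cldn11, ATRA called 6 higher and 4 lower: Cgn (cingulin, a junction plaque protein, 1.11 ± 0.08), Cldn7 (1.09 ± 0.15) and Jam3 (0.50 ± 0.07) rose, and Jam2 (−0.81 ± 0.09), Marveld2 (tricellulin, −0.53 ± 0.12) and Cldn4 (−1.08 ± 0.29) fell. Of 13 tested prostaglandin pathway genes besides Ptgds, ATRA called 4 higher and 1 lower. Ptger4, a prostaglandin E2 receptor, rose by 0.96 ± 0.13, Slco2a1, the prostaglandin transporter, by 0.68 ± 0.14 and Hpgd, which inactivates prostaglandins, by 0.60 ± 0.09, whereas Ptges, a prostaglandin E2 synthase, fell by 0.59 ± 0.10 in log2.

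Vnn1 was not among the PPAR target genes that MEHP raised. MEHP called 12 of 20 other tested PPAR targets higher, with a median of 0.33, among them Angptl4 (1.39 ± 0.07) and Cpt1a (0.61 ± 0.07), genes of lipid handling and fatty acid oxidation. Vnn1 was at −0.01 ± 0.12 with MEHP, and its 95% interval (−0.25 to 0.23) lies below both of these changes. Of 8 tested genes of pantetheine and coenzyme A metabolism, MEHP called 1 higher and 0 lower. ATRA, with which Vnn1 fell, called 0 of the 8, and MEHP + ATRA called 3 higher and 2 lower.

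Retinoid targets, a check on exposure, rose with ATRA in 8 of 9 genes, among them Cyp26a1 (6.10 ± 0.31), Rarb (3.85 ± 0.16) and Dhrs3 (2.59 ± 0.06), which code for a retinoid-degrading enzyme, a retinoic acid receptor and a retinaldehyde reductase. MEHP called 3 of the 9 higher, with Dhrs3 at 0.57 ± 0.07.

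Markers of other cell types moved with ATRA as well, and their part in the members' changes was not tested. The summed level of 7 granulosa cell markers, genes of the ovarian counterpart of the Sertoli cell, was 229 to 268 CPM with ATRA and 269 to 325 CPM with MEHP + ATRA, against 94.98 to 124 CPM in lower-range vehicle. With ATRA 4 of the 7 were called higher, among them Foxl2 (2.23 ± 0.21, from 2.63 to 12.3 CPM) and Wnt4 (1.46 ± 0.08). Rspo1 (−0.46 ± 0.21, adjusted p = 0.136) and Fst (−0.35 ± 0.28, adjusted p = 0.480, edgeR) went the other way and were not called. None of the 7 was at 0 in any group. With MEHP the sum was 105 to 163 CPM against 86.3 to 103 CPM in upper-range vehicle. MEHP called 1 of the 7 higher (Wnt4, 0.67 ± 0.08), and the other 6 were not called (median of the 7 genes 0.18). Of 5 coelomic surface markers, ATRA called 1 higher (Krt19, 1.49 ± 0.35), the median of the 5 was −0.28, and their summed level was 59.7 to 165.5 CPM against 47.4 to 119 CPM. Of 6 Leydig cell markers ATRA called 1 higher, and their sum was 1609 to 1923 CPM with ATRA against 1646 to 1975 CPM in lower-range vehicle. The sum of 6 germ cell markers was 552 to 688 CPM against 437 to 712 CPM.

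Vehicle libraries alone also differed in how much of each product they held, and the differences ran in the same direction for most pairs of members. Over the 15 vehicle libraries, 13 of the 21 pairs of members had a correlation of log2 CPM past an adjusted p of 0.05 (Pearson r from 0.16 to 0.83 over the 21, permutation test, two-sided, 28 relations in the family). The share among pairs of all genes was not computed, so this count is a description. Clu and Mro had r = 0.83 (p = 2e-04, adjusted p = 0.00243; rho = 0.66, p = 0.00953, adjusted p = 0.0356), 0.76 without the 2 libraries farthest from the median of Clu, and 0.80 within each range. Cldn11 and Vnn1 had r = 0.82 (p = 0.00021, adjusted p = 0.00243; rho = 0.825, p = 0.00029, adjusted p = 0.00406), 0.82 without the 2 farthest libraries, and 0.86 and 0.85 within the lower and upper ranges. Cst9 and Aard had r = 0.79 (p = 0.00044, adjusted p = 0.00308; rho = 0.82, p = 0.00025, adjusted p = 0.00406), 0.78 without the 2 farthest, and 0.68 and 0.65 within the ranges.

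Not all pairs passed the threshold. Cldn11 and Mro had r = 0.16 (permutation p = 0.565, adjusted p = 0.585) and rho = 0.31 (permutation p = 0.264, adjusted p = 0.296). Mro and Vnn1 had r = 0.28 (permutation p = 0.316, adjusted p = 0.369) and rho = 0.22 (permutation p = 0.436, adjusted p = 0.469). The r of Mro and Vnn1 turned to −0.34 without vehicle replicates 1 and 11. When the 2 libraries farthest from the median were left out of every relation, 4 of the 21 pairs were past the threshold. Some r values moved little, as for Cst9 and Clu (0.62 to 0.61) and Aard and Ptgds (0.59 to 0.57), and others fell more, as for Clu and Vnn1 (0.66 to 0.40) and Ptgds and Mro (0.76 to 0.56). Vehicle replicate 11 was the highest library of its range for all 7 members, for the summed other Sertoli cell genes (5823 CPM) and for the Leydig cell markers (2449 CPM), and it had the lowest coelomic surface marker sum (3.25 CPM). Vehicle replicate 1 had the lowest sum of other Sertoli cell genes (3168 CPM), the lowest Clu (1035 CPM) and the lowest Mro (82.8 CPM).

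Against the summed level of the 32 other Sertoli cell genes, a measure added after the values were seen, 6 of the 7 members passed in vehicle by Pearson r. How many of all genes tested would pass was not computed, so this count is a description. Clu had the highest value, with r = 0.89 (permutation p = 2e-05, adjusted p = 0.00014) and rho = 0.81 (permutation p = 0.00044, adjusted p = 0.00308). Its r was 0.74 without vehicle replicates 1 and 11. Mro had r = 0.84 (permutation p = 0.00044, adjusted p = 0.00133) and rho = 0.66 (permutation p = 0.00881, adjusted p = 0.0168). Ptgds had r = 0.81 (permutation p = 0.00057, adjusted p = 0.00133) and rho = 0.75 (permutation p = 0.00212, adjusted p = 0.00742). Without these 2 libraries r was 0.48 for Mro and 0.49 for Ptgds. Within the lower and upper ranges, r was 0.82 and 0.93 for Clu, 0.70 and 0.86 for Mro, and 0.64 and 0.86 for Ptgds. Aard had r = 0.61 (rho = 0.66) and Cst9 r = 0.58 (rho = 0.57), which were 0.59 and 0.30 without these 2 libraries. Vnn1 had r = 0.55 (permutation p = 0.0293, adjusted p = 0.0342) and rho = 0.44 (permutation p = 0.0969, adjusted p = 0.0969). Cldn11 had r = 0.50 (permutation p = 0.0585, adjusted p = 0.0585) and rho = 0.61 (permutation p = 0.0172, adjusted p = 0.0241), so which of these 2 passed depended on the measure, and r was 0.22 for Vnn1 and 0.43 for Cldn11 without the 2 libraries. Within the lower range r was 0.74 for both Vnn1 and Cldn11, above Mro and Ptgds, and within the upper range 0.40 and 0.22. For Aard the values within the ranges were 0.53 and 0.42 and for Cst9 0.56 and 0.31, so the order of the members differed between these sets of libraries. Against an index of germ cell stage, late minus early fetal male germ cell genes, 1 of 7 members passed by Pearson r. This was Cldn11, with r = −0.63 (permutation p = 0.0116, adjusted p = 0.0271), but its rho of −0.57 did not pass (permutation p = 0.0293, adjusted p = 0.0585). Its r was −0.44 without the 2 farthest libraries (vehicle replicates 3 and 13), and −0.74 and −0.50 within the lower and upper ranges.

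**Figure D5:**
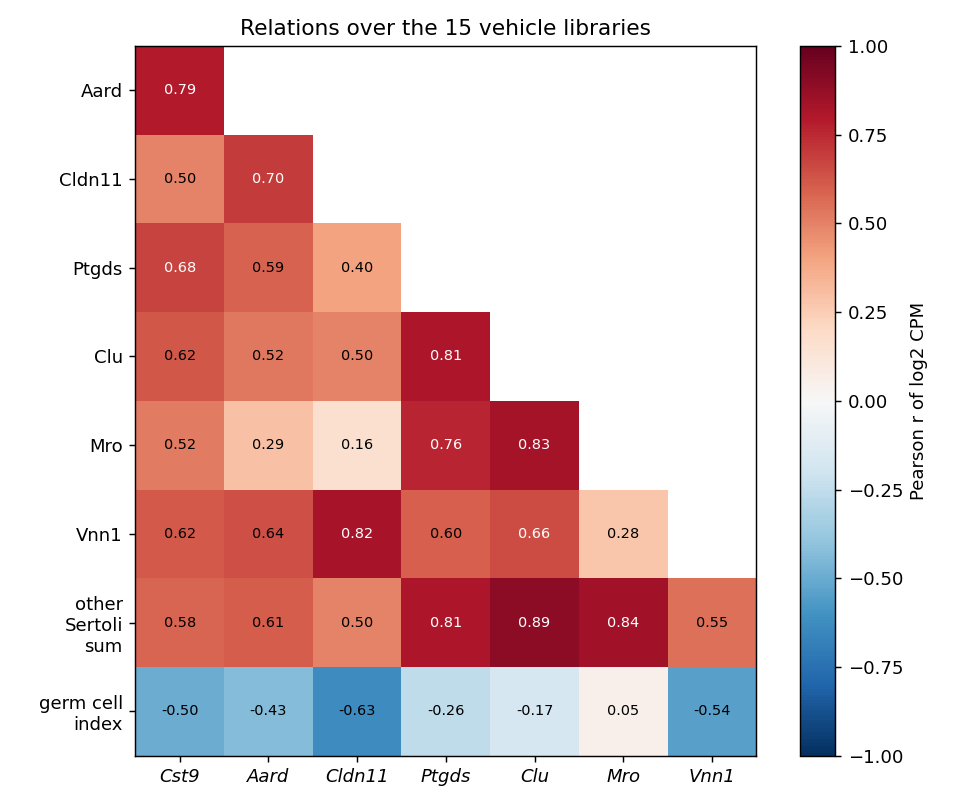
Pearson r of log2 CPM over the 15 vehicle libraries between members (upper rows), and between each member and the summed level of 32 other Sertoli cell genes and the germ cell stage index (the lowest rows). Colour and printed number give r, with Clu and Mro at 0.83 and Cldn11 and Vnn1 at 0.82.

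A closely related pair in vehicle moved in opposite directions with ATRA. Cldn11 and Vnn1, at r = 0.82 in vehicle, moved by 1.66 and −0.45 in log2 with ATRA, and over all 30 libraries, where the treatments add to the spread, their r was −0.55. Over the 30 libraries the members formed a rising set, with r = 0.94 for Cst9 and Aard, 0.91 for Cst9 and Cldn11 and 0.89 for Aard and Cldn11, and another set of Ptgds, Clu, Mro and Vnn1 with r from 0.59 (Mro and Vnn1) to 0.80 (Clu and Mro). These values describe libraries that share treatment, depth and composition, and they carry no test.

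The genes most like each member over the 30 libraries, among 13105 candidates, differed between the sets. Cst9 was closest to Slc6a14 (r = 0.95), Lyrm9 (0.95) and Gstt3 (0.95), Aard to Bex2 (0.95), Cst9 (0.94) and Fbxo32 (0.94), and Cldn11 to Plat (0.95), Vdr (0.95) and Hic1 (0.95). Ptgds was closest to Mcrip2 (0.92), Pak3 (0.87) and Steap3 (0.87), and Mro had Mcrip2 (0.84) and Inha (0.84) among its 3 closest. Clu was closest to Tmprss13 (0.86), Ppp1r16b (0.84) and Ndfip1 (0.84), and Vnn1 to Iqgap2 (0.88), Slc25a5 (0.87) and Prss35 (0.87). Over the vehicle libraries alone, r with these same genes was 0.63 to 0.78 for Cst9, 0.79 to 0.90 for Aard and 0.40 (Vdr) to 0.67 (Plat) for Cldn11. For Ptgds, Clu, Mro and Vnn1 it was 0.78 to 0.91.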

How the data were processed

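Per the labels' protocols, mRNA was enriched with oligo(dT) beads and made into libraries with a NEBNext Ultra II RNA kit. Each library's file holds raw, unnormalised counts in the layout of featureCounts, per the file headers. The submitters' processing notes name bcl2fastq 2.20, Trimmomatic 0.36, STAR 2.5.2b, Subread 1.5.2 and DESeq2. Which build, annotation release and strand setting were used is not given in the sources used here. Gene identifiers matched GENCODE M21 (GRCm38) for 99.3% of genes, 91.36% of them with identical coordinates (not Clu), and names were taken from it.

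edgeR 4.0.16 in R 4.3.3 kept 19323 genes (filterByExpr, minimum count 10), scaled by TMM (factors 0.975 to 1.023) and fitted 1 quasi-likelihood model to all 30 libraries, with group and range as terms and 25 residual degrees of freedom. Tests were two-sided with Benjamini-Hochberg adjustment over all genes tested and a threshold of 0.05, and unless a sentence names another tool its adjusted p comes from edgeR. Standard errors are the log2 fold change over the root of F. Relations across vehicle used log2 CPM (prior count 2) and 100000 permutations. The code was tested on simulated data. No 2 libraries of a group agreed within sampling noise (lowest chi-square per degree of freedom 2.53).

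The 7 members and the 21 gene lists were chosen with earlier results of these data known. All members are named in every comparison, and of the pathway, Sertoli and granulosa cell lists up to 6 called genes with the smallest p in each comparison, besides Sox9, Sox8, Amh, Dhh, Inha, Fshr, Wt1 and Foxl2, and for each member the 3 genes with the highest r. Krt19, 8030411F24Rik, Rspo1, Fst and the uncalled cystatin genes lie outside this rule and were named after their values were seen. A few genes that the rule would name are not reported here. Alternatives were RLE scaling, no filter, DESeq2 1.42.0, limma-voom (limma 3.58.1), no range term, each range alone, blocks on the first title number, and leaving out libraries.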

Additional observations from a re-analysis of the deposited data

Results flagged for a closer look

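Among 35 sets of 1 gene in 1 group, 2 held a library that lay far from the rest of its group, and chance alone flags about 1 set in 20. With ATRA, Aard was lowest in replicate 5 at 380.2 CPM, against 455 to 471 CPM in replicates 1 to 4. That library still lay above the highest lower-range vehicle library (240.5 CPM), and it was also the lowest ATRA library for Cldn11 (73.7 CPM), Ptgds (119.7 CPM) and Clu (985 CPM).

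In upper-range vehicle, Ptgds was highest in replicate 11 at 294.5 CPM, where the group median was 185 CPM and its lowest library had 169 CPM. Replicate 11 was the highest upper-range vehicle library for Cst9 (129 CPM), Aard (302 CPM), Cldn11 (33.45 CPM), Clu (1556 CPM), Mro (144 CPM) and Vnn1 (32.85 CPM) as well. Leaving it out of the fit kept the ATRA change of Ptgds at −0.25 in log2 and moved its adjusted p from 0.142 to 0.0494 (edgeR).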

How the results depend on the processing

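The 7 members in 7 comparisons gave 1876 values under the alternatives, of which 1792 kept their direction and side of the threshold, 39 were uncalled with another sign, 23 lost a call, 22 gained one and 0 calls reversed. Cst9, Aard and Cldn11 kept their calls with ATRA and with MEHP + ATRA in all of these fits. Of the other named genes, 45 were also followed through the alternatives. They gave 5264 values, and 38 of these values, in 8 of 95 called results, lost the call. With 1 library left out, members called higher with MEHP ranged from 0 to 2 (0 without MEHP replicate 1 or 6 or vehicle replicate 3 or 10), members lower with ATRA from 1 to 2 (2 without vehicle replicate 11), those lower with MEHP + ATRA from 0 to 4 (4 without its replicate 1, 0 without its replicate 2 or 4) and those lower in MEHP + ATRA against MEHP from 0 to 1 (1 without MEHP + ATRA replicate 1). Genes called ranged from 340 (without MEHP + ATRA replicate 1) to 689 in MEHP + ATRA against ATRA, from 3 (without MEHP + ATRA replicate 2) to 8 for the interaction, and from 10 (without vehicle replicate 14) to 169 (without vehicle replicate 4) between vehicle ranges, where 13 libraries each moved the count by over 1.5 times. Without the range term, MEHP called 2229 genes (912 with it), MEHP + ATRA against MEHP 3181 (1601 with it) and the interaction 10 (6 with it), and members lower were 2 with ATRA, 3 with MEHP + ATRA and 2 in MEHP + ATRA against MEHP. Within its own range alone, MEHP called 439 genes and 0 members, and MEHP + ATRA against ATRA 967 genes (579 in the whole fit). By limma-voom, ATRA called 5527 genes (3494 by edgeR), MEHP + ATRA against ATRA 1656, the interaction 10 and the vehicle ranges 136 (72 by edgeR), with members lower 2 with ATRA, 4 with MEHP + ATRA and 1 in MEHP + ATRA against MEHP. DESeq2 called 12 genes for the interaction and 338 between vehicle ranges, and with no filter 19 were called between ranges. Without vehicle replicates 1 and 11 and MEHP + ATRA replicate 1, chosen after seeing the data, members lower were 2 with ATRA, 4 with MEHP + ATRA and 2 in MEHP + ATRA against MEHP, and genes called were 371 in MEHP + ATRA against ATRA and 0 between ranges. The replicate block on the first title number changed no member's call. Within ranges it left 2 genes for the interaction, and over all libraries 3, with 1371 in MEHP + ATRA against ATRA and 42 between ranges. Deviations of same-numbered libraries had a median r of 0.10 over 29 pairs, 15 of them over 0.1 and the highest 0.75, against −0.01 over 108 pairs with other numbers, 18 of them over 0.1. Same-numbered libraries thus tended to be more alike, which the p-values of the main fit do not take into account. The labels do not say what the number marks, and the block was kept as an alternative. For relations in vehicle, 4 of 21 pairs (13 with all libraries) and 0 of 7 members against the germ cell index (1 with all) passed without the 2 farthest libraries. For all of these shifts the cause was not tested. The lowest count of any member was 325 (Vnn1), so depth limits the members little.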
